A study of Homo sapiens with 4 samples.

Results

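The lysyl oxidases and a set of matricellular proteins were followed across 4 arrays of lung adenocarcinoma cells. The members were 10 genes chosen by name, the 5 lysyl oxidases LOX, LOXL1, LOXL2, LOXL3 and LOXL4 and the 5 matricellular genes POSTN, SPP1, TGFBI, SPARC and THBS1, of 19775 genes read on the arrays. Every probe set annotated to a listed symbol and to no other was read, which gave 27 probe sets, from 1 for LOXL1, LOXL3 and TGFBI to 7 for THBS1. A probe set is a small group of oligonucleotides that reads a transcript. All 10 members had at least 1 probe set above the floor described below on at least 1 array, and 3 of the 27 probe sets lay below it on all 4.

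CL1-0 and CL1-5 are human lung adenocarcinoma cell lines, and CL1-5 is known as an invasive subline derived from CL1-0. The groups were CL1-5 with an shRNA vector against AK4, CL1-5 with a non-silencing shRNA vector, CL1-0 with a vector for AK4 and CL1-0 with a control vector. AK4 is a mitochondrial adenylate kinase. All cells were stably transduced and kept in puromycin for 2 weeks, so the controls carried a vector and a selection too. Whether each line was a clone or a pool, and which promoter drove the vectors, is not given in the sources used here. Each group was 1 array, so no difference below has a replicate error, a test or a p-value.

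Lysyl oxidases are copper-dependent enzymes that are secreted into the matrix. They oxidise lysines of collagen and elastin, and the products form the cross-links that stiffen a matrix. Matricellular proteins are secreted proteins that bind matrix fibres, integrins and growth factors without being structural fibres themselves. Both groups are widely studied in tumour invasion, where they are made by tumour cells as well as by stromal cells. These arrays read cultured tumour cell lines, and they read RNA, not protein or enzyme activity.

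Signals are given as scaled intensities with no unit, each array set to a common trimmed mean. The 40th percentile of the scaled signals, 6.94, served as a floor, and values under it were raised to it before log2 was taken. The probe set with the highest mean log2 level stood for a gene, which was counted as measured where at least 1 of 2 arrays lay above the floor, and counted as higher or lower from 2-fold upwards. The AK4 transcript was read first. Probe set 204348_s_at had a signal of 442 with AK4 shRNA and 1056 with non-silencing shRNA in CL1-5, and of 111 on the CL1-0 array labelled AK4 vector and 115 with control vector. The signal was thus lower with AK4 shRNA, at 41.9% of the non-silencing array, but it was not higher on the array labelled AK4 vector. Over all 4 AK4 probe sets, AK4 shRNA gave 41.9% to 54.4% of the non-silencing signal, and the log2 ratio of AK4 vector over control vector lay between -0.25 and -0.05. Directions drawn from that array rest on its label, since the position of the probe sets against the vector insert is not given in the sources used here.

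The labelled cell type is the type II alveolar cell, and its markers were read on the same arrays. Of 9 such markers with a probe set, 6 lay above the floor on each CL1-5 array, and 7 with AK4 vector and 8 with control vector in CL1-0. Surfactant protein C (SFTPC), which defines that cell type, had signals between 23.96 and 30.76. The endothelial marker PECAM1 had 54.0 and 45.1 in CL1-5, so a signal of this size does not show the cell type. Other type II markers differed between the lines. LAMP3 had 4.66 and 5.08 in CL1-5 (AK4 shRNA, non-silencing) and 160 and 210 in CL1-0 (AK4 vector, control vector). LPCAT1 went the other way, with 361 and 349 in CL1-5 and 127 and 101 in CL1-0. The phosphate transporter SLC34A2 was below the floor on all 4 arrays. Of 6 epithelial markers, 4 lay above the floor on each CL1-5 array, and 5 with AK4 vector and 3 with control vector in CL1-0, with summed signals of 1783 and 2027 in CL1-5 and 52.5 and 51.5 in CL1-0. Most of the CL1-5 sum was the keratin KRT18, with 1485 and 1681 in CL1-5 (AK4 shRNA, non-silencing) and 10.8 and 12.1 in CL1-0 (AK4 vector, control vector). EPCAM and CDH1, which define epithelial cells, were below the floor on both CL1-5 arrays and on the CL1-0 control array, and had 9.46 and 9.81 with AK4 vector. Of 8 fibroblast markers, 5 lay above the floor on each CL1-5 array and 3 on each CL1-0 array, with summed signals of 136 and 154 in CL1-5 and 111 and 104 in CL1-0. Over the 4 arrays COL1A1 lay between 47.4 and 78.3, DCN between 14.96 and 22.3 and THY1 between 12.8 and 27.0, all above the floor, whereas COL3A1, LUM and PDGFRA were below it throughout. As a gauge of RNA integrity, the 3' over 5' ratio of the beta-actin controls (higher in degraded RNA) was 1.61 and 1.34 in CL1-5 and 6.54 and 6.04 in CL1-0, and for GAPDH it was 1.07 and 1.04 in CL1-5 and 1.54 and 1.25 in CL1-0. This measure moved with the line in every comparison between lines below, and its part in them was not tested.

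**Figure D1:**
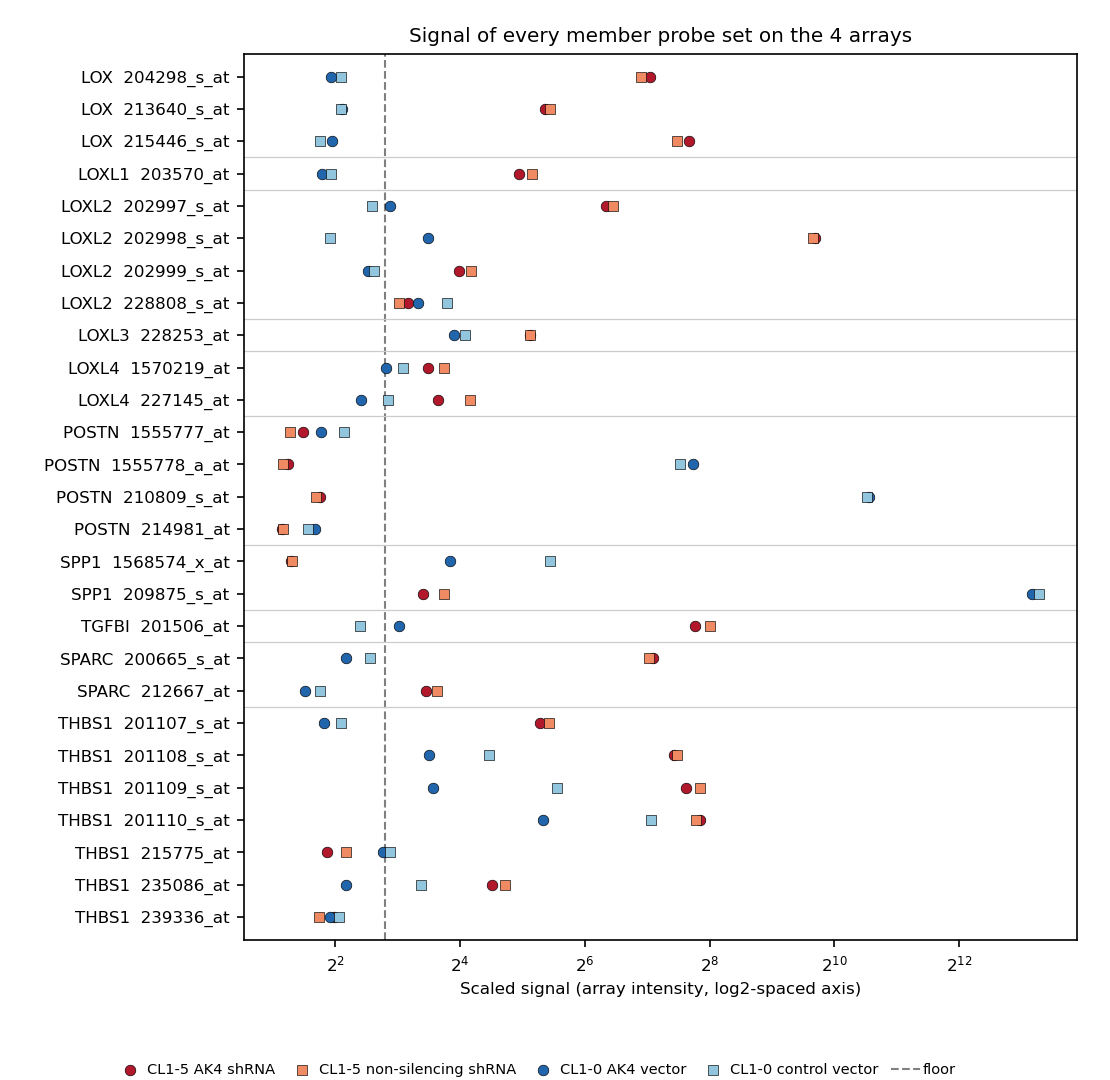
Scaled signal (horizontal, log2-spaced axis) of the 27 member probe sets (rows) on the 4 arrays, 1 point an array, with the floor of 6.94 as a dashed line. LOX, LOXL1, SPARC and most LOXL2 probe sets sit right of the floor in CL1-5 and at or near it in CL1-0, and POSTN and SPP1 show the opposite.

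Promoter sequence is shown for SPP1, POSTN, TGFBI and LOX, which with LOXL2 had the largest ratios between the lines, and for THBS1, whose ratio was furthest from 0 between the CL1-0 arrays. None is shown for LOXL2. Each line holds the 250 bases before the outermost annotated start, from RefSeq on GRCh38.p14, 5' to 3' on the gene's own strand. Capitals mark matches on either strand to the TATA-like boxes TATAAA and TTTAAA, the CCAAT box, the GC box GGGCGG, the hypoxia-element core ACGTG or the AP-1 site TGANTCA, which were picked after the sequences had been seen, and no matches of different motifs shared a base.
LOX, chr5:122078260-122078509, minus strand: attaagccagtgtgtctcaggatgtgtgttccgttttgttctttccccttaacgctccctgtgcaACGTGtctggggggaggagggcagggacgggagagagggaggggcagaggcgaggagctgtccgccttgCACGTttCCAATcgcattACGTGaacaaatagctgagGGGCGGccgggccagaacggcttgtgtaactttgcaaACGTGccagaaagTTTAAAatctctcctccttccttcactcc
TGFBI, chr5:136028738-136028987, plus strand: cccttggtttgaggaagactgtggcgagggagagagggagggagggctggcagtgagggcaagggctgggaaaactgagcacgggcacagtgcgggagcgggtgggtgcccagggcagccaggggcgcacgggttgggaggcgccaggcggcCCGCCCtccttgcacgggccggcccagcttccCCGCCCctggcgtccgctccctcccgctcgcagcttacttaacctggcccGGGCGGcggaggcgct
THBS1, chr15:39580829-39581078, plus strand: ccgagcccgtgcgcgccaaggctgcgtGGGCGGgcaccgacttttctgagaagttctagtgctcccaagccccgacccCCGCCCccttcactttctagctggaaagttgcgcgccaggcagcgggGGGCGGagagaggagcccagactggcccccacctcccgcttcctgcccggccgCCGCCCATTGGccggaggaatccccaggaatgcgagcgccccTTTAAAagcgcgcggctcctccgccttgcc
SPP1, chr4:87975464-87975713, plus strand: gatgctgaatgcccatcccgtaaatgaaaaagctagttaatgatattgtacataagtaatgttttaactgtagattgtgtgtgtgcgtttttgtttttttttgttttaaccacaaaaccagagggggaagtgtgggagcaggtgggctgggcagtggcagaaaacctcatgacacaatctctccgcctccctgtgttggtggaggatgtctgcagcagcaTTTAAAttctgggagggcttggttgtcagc
POSTN, chr13:37598769-37599018, minus strand: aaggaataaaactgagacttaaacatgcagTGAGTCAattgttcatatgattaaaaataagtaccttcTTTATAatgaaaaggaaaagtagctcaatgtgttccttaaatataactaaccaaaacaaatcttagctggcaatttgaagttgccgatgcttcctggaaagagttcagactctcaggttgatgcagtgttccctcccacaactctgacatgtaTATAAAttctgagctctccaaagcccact

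These windows differ in base composition. Among the 8 members with such a window, GC content was lowest for POSTN at 36.4% and SPP1 at 44.8%, the 2 genes with more signal in CL1-0. Whether GC content goes with the direction between the lines was not tested. GC content was 55.2% for LOX, 59.2% for SPARC, 66.8% for LOXL1, 69.6% for THBS1, 72.8% for TGFBI and 86.4% for LOXL4. The median over 24885 promoters was 57.6%. A TATAAA or TTTAAA box on the gene's strand began 25 to 35 bases before the start in 4 of the 8, namely POSTN, LOX, SPP1 and THBS1, whereas 3.79% of all promoters have one there. The LOX window held 4 matches to ACGTG, and 0.683% of all promoters hold 4 or more. POSTN alone among the 8 held TGANTCA, which 6.67% of all promoters hold. GGGCGG was found 6 times in the LOXL4 window, 4 times in that of THBS1, 3 times in that of TGFBI and 1 time in that of LOX. Of all promoters, 7.53% hold it 4 or more times. The THBS1 and LOX windows each held CCAAT once, which 33.4% of all promoters hold at least once. Because the motifs were picked after these sequences had been seen, the shares only describe the windows and are no test of enrichment. A match is a run of letters and does not show that a factor binds there.

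The control arrays of the lines set the invasive subline against its parent. All 5 lysyl oxidases, each read from its brightest probe set, had more signal in CL1-5 and were at least 2-fold higher. The 2-fold calls of LOXL3 and LOXL4 did not hold under every setting. Among the matricellular genes TGFBI and SPARC were higher while SPP1 and POSTN were lower. In these bulk cultures, fewer expressing cells and less RNA per cell cannot be told apart. Of the 10 members, 7 were at least 2-fold higher in CL1-5 with non-silencing shRNA than in CL1-0 with control vector, where 17.1% of all measured genes were. A further 2 members were at least 2-fold lower, where 14.2% of all measured genes were. The members' median log2 ratio was 1.84, against 0.13 over all 15969 measured genes. Cell line and type of vector differ together between these arrays and cannot be told apart.

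LOX, the founding enzyme of the family, acts on fibrillar collagen and elastin. Its brightest probe set, 215446_s_at, had signals of 204 with AK4 shRNA and 179 with non-silencing shRNA in CL1-5, and of 3.86 with AK4 vector and 3.37 with control vector in CL1-0. Probe set 204298_s_at gave 133 and 120.0 in CL1-5 and 3.80 and 4.25 in CL1-0 in the same order, and 213640_s_at gave 41.2 and 43.4 in CL1-5 and 4.32 and 4.25 in CL1-0. All 3 LOX probe sets were above the floor on both CL1-5 arrays and below it on both CL1-0 arrays. Since the CL1-0 values lay under the floor, the differences are lower bounds for each probe set under this scaling. CL1-5 was at least 25.8-fold, 17.3-fold and 6.25-fold higher between the control arrays by these probe sets.

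LOXL1, which is needed for elastic fibres, was read by 203570_at alone. It had 30.8 with AK4 shRNA and 35.6 with non-silencing shRNA in CL1-5, and 3.43 with AK4 vector and 3.79 with control vector in CL1-0. CL1-5 was therefore at least 5.13-fold higher between the controls.

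LOXL2, which acts on collagen IV of basement membranes and carries scavenger receptor domains that LOX and LOXL1 lack, had the largest positive ratio of the family. Probe set 202998_s_at had 829.9 with AK4 shRNA and 809 with non-silencing shRNA in CL1-5, and 11.1 with AK4 vector and 3.75 with control vector in CL1-0, so CL1-5 was at least 117-fold higher between the controls. The same direction was seen at 202997_s_at, at least 12.6-fold, and at 202999_s_at, at least 2.60-fold. The fourth LOXL2 probe set, 228808_s_at, went the other way. It had 8.95 and 8.08 in CL1-5 and 10.02 and 13.9 in CL1-0, all close to the floor, with a log2 ratio of -0.78 between the controls. With the mean of all 4 probe sets the LOXL2 log2 ratio was 2.78, against 6.87 from the brightest.

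LOXL3 and LOXL4 carry the same kind of scavenger receptor domains as LOXL2, and they differed less between the lines. LOXL3, read by 228253_at, had 34.9 with AK4 shRNA and 34.6 with non-silencing shRNA in CL1-5, and 15.02 with AK4 vector and 16.9 with control vector in CL1-0, a log2 ratio of 1.04 between the controls. LOXL4 had 12.5 and 17.9 in CL1-5 and 5.32 and 7.17 in CL1-0 at 227145_at, a log2 ratio of 1.32. Its other probe set, 1570219_at, had 11.2 and 13.3 in CL1-5 and 6.98 and 8.51 in CL1-0, a log2 ratio of 0.64. Both CL1-5 signals were above both CL1-0 signals at each of these 3 probe sets. The share of all probe sets with such a split is not given here. The 2-fold calls were fragile, however. Under quantile normalization, scaling to a common median and loess, LOXL3 was at 0.57, 0.55 and 0.52 and LOXL4 at 0.89, 0.83 and 0.72, all still above 0. With a 60th-percentile floor LOXL4 was at 0.09, and with a 20th-percentile floor at 0.64. It was at 0.98 averaged over its probe sets and at 0.85 between the remaining arrays of the lines.

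**Figure D2:**
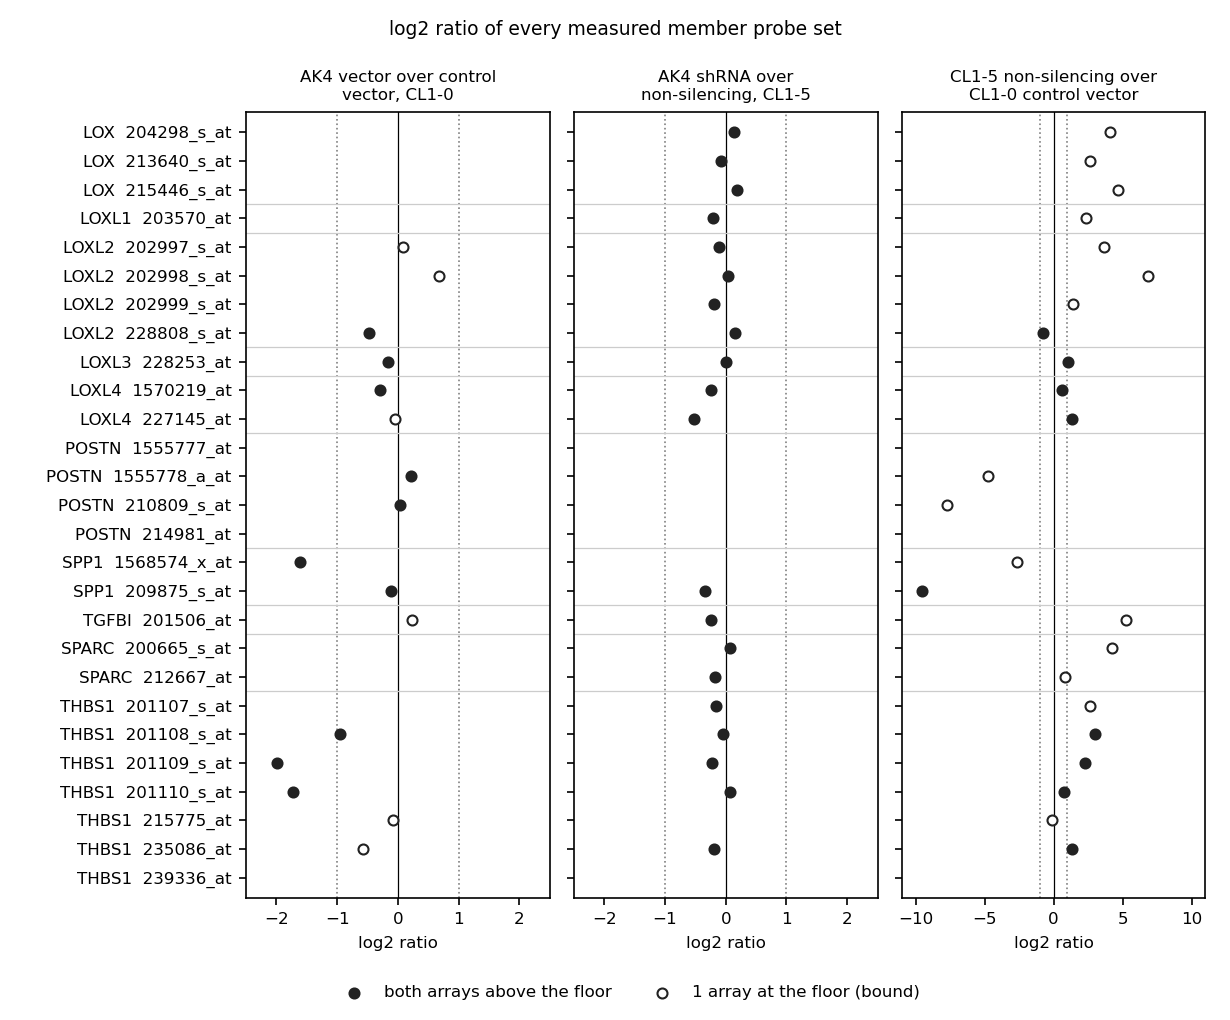
The log2 ratio (horizontal) of each measured member probe set (rows) in the 3 comparisons, with dotted lines at 2-fold. Filled points had both arrays above the floor, open points had 1 array at the floor and are bounds, and the horizontal range of the right panel is wider. Most rows lie near 0 in the left and middle panels, except 2 THBS1 probe sets and 1 SPP1 probe set left of the 2-fold line in the left panel, and many lie far from 0 in the right panel.

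SPP1 encodes osteopontin, a secreted phosphoprotein that binds integrins and CD44. Probe set 209875_s_at had 10.6 with AK4 shRNA and 13.4 with non-silencing shRNA in CL1-5, and 9249 with AK4 vector and 9955 with control vector in CL1-0. Both CL1-5 arrays were just above the floor and both CL1-0 arrays were near the top of the range. The signal was 743-fold lower in the CL1-5 control than in the CL1-0 control, a log2 ratio of -9.54, and this was the lowest ratio of the 13232 genes above the floor on both arrays. As deposited the CL1-0 signals were 6422 and 7029, where the highest signals of those arrays were 10536 and 10392, and whether they were near saturation was not tested. The second SPP1 probe set, 1568574_x_at, had 2.43 and 2.46 in CL1-5, below the floor, and 14.3 and 43.6 in CL1-0, at least 6.28-fold lower in CL1-5 between the controls.

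POSTN encodes periostin, a protein of fasciclin domains that binds collagen and integrins and is known in the mouse to assist the proteolytic activation of lysyl oxidase. Probe set 210809_s_at had 3.37 with AK4 shRNA and 3.21 with non-silencing shRNA in CL1-5, and 1499 with AK4 vector and 1465 with control vector in CL1-0. Probe set 1555778_a_at had 2.37 and 2.23 in CL1-5 and 214 and 185 in CL1-0. POSTN was thus below the floor in CL1-5 on both arrays and above it in CL1-0 on both, at least 211-fold and 26.6-fold lower in the CL1-5 control by these probe sets. The other 2 POSTN probe sets, 1555777_at and 214981_at, did not pass the floor on any array, between 2.21 and 4.39.

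TGFBI, a relative of periostin with the same fasciclin domains that is induced by TGF-beta, went the opposite way. Its probe set 201506_at had 217 with AK4 shRNA and 257 with non-silencing shRNA in CL1-5, and 8.12 with AK4 vector and 5.26 with control vector in CL1-0, at least 37.1-fold higher in the CL1-5 control. SPARC, or osteonectin, a collagen-binding glycoprotein, had 136 and 130 in CL1-5 and 4.49 and 5.88 in CL1-0 at 200665_s_at, at least 18.7-fold higher in the CL1-5 control. At 212667_at SPARC had 10.9 and 12.4 in CL1-5 and 2.84 and 3.38 in CL1-0, at least 1.78-fold higher. The 2 fasciclin genes thus had opposite patterns over the 4 arrays, POSTN bright in CL1-0 alone and TGFBI bright in CL1-5.

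THBS1 encodes thrombospondin-1, which activates latent TGF-beta and binds CD36 and CD47. Its level in CL1-5 against CL1-0 depended on the probe set. The brightest, 201110_s_at, had 231 with AK4 shRNA and 221 with non-silencing shRNA in CL1-5, and 40.2 with AK4 vector and 134 with control vector in CL1-0, a log2 ratio of 0.72 between the controls that did not reach 2-fold. Probe sets 201109_s_at and 201108_s_at gave 2.29 and 3.01, 235086_at gave 1.34, and 201107_s_at, below the floor in CL1-0, gave at least 2.63. Taken over the remaining arrays, AK4 shRNA in CL1-5 over AK4 vector in CL1-0, the ratio of 201110_s_at was 2.52, an alternative added after the data were seen. The remaining probe sets, 215775_at and 239336_at, lay at or below 7.35 on all 4 arrays.

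Read as a pattern over all 4 arrays, LOX, LOXL1 and SPARC were above the floor on both CL1-5 arrays and on neither CL1-0 array. These are 3 of the 10 members, where 6.24% of all 19775 genes had this pattern. POSTN was the 1 member with the mirror pattern, above the floor on both CL1-0 arrays and on neither CL1-5 array, where 3.03% of all genes had it. LOXL2 and TGFBI missed the first pattern because the CL1-0 array labelled AK4 vector lay above the floor, at 11.1 and 8.12. Scaling sets where the lines stand against each other. Genes higher in CL1-5 made up 54.6% of all genes past 2-fold here, 42.9% under quantile normalization, 41.2% under loess, 26.7% with a common median and 90.4% with the values as deposited. The median ratio of all genes lay between -0.30 with a common median and 0.83 as deposited. Over every setting tried, no member changed sign between the lines, as the plot of settings shows, though LOX, LOXL2 and SPP1 had no value without the _x_at and _s_at probe sets.

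**Figure D3:**
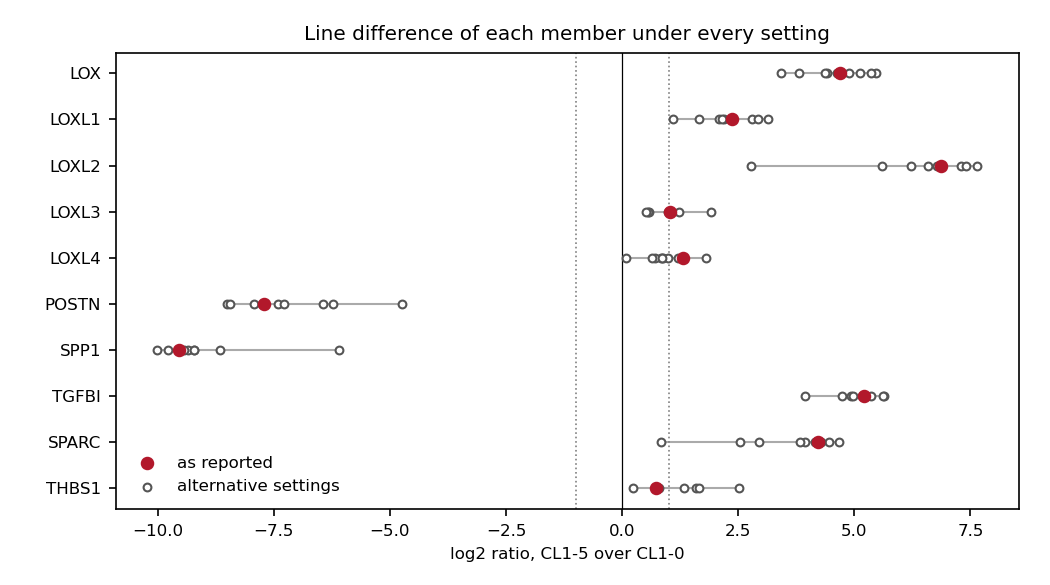
The log2 ratio of CL1-5 over CL1-0 (horizontal) for each member as reported (red) and under the alternative settings (open), with dotted lines at 2-fold. LOXL3, LOXL4 and THBS1 cross the 2-fold line between settings, SPARC crosses it at 0.83 without the _x_at and _s_at probe sets, and no member crosses 0.

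The comparison within CL1-0 asked what differs on the array labelled AK4 vector. THBS1 was lower there. Of the lysyl oxidases read in CL1-0, LOXL3 was at -0.17, and LOXL2 and LOXL4, each read from its brightest probe set, gave only bounds. Of 7 measured members, 1 was at least 2-fold lower, where 1.17% of all measured genes were, and 0 were at least 2-fold higher, where 3.22% were. The members' median log2 ratio was -0.05, against 0.05 over all 14678 measured genes. This comparison and that of the lines share the CL1-0 control array, so a high value there moves both.

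THBS1 had 40.2 on the array labelled AK4 vector and 134 on the control vector array at 201110_s_at, a log2 ratio of -1.73 and 30.1% of the control. This was the 14th lowest ratio of 13582 genes above the floor on both arrays. At 201109_s_at it had 11.8 with AK4 vector and 47.0 with control vector, a log2 ratio of -1.99. At 201108_s_at it had 11.4 and 22.1 in the same order, a log2 ratio of -0.96. All 5 measured THBS1 probe sets were lower with AK4 vector, the other two being 235086_at at -0.58 and 215775_at at -0.08, where the AK4 vector signal was under the floor. Without the _x_at and _s_at probe sets, whose oligonucleotides may match several transcripts, THBS1 was read from 235086_at and no longer passed 2-fold. For scale, ratios of probe sets to the same gene had a pooled SD of 0.41 in this comparison, a spread that transcript differences can add to and that is no substitute for replicates.

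**Figure D4:**
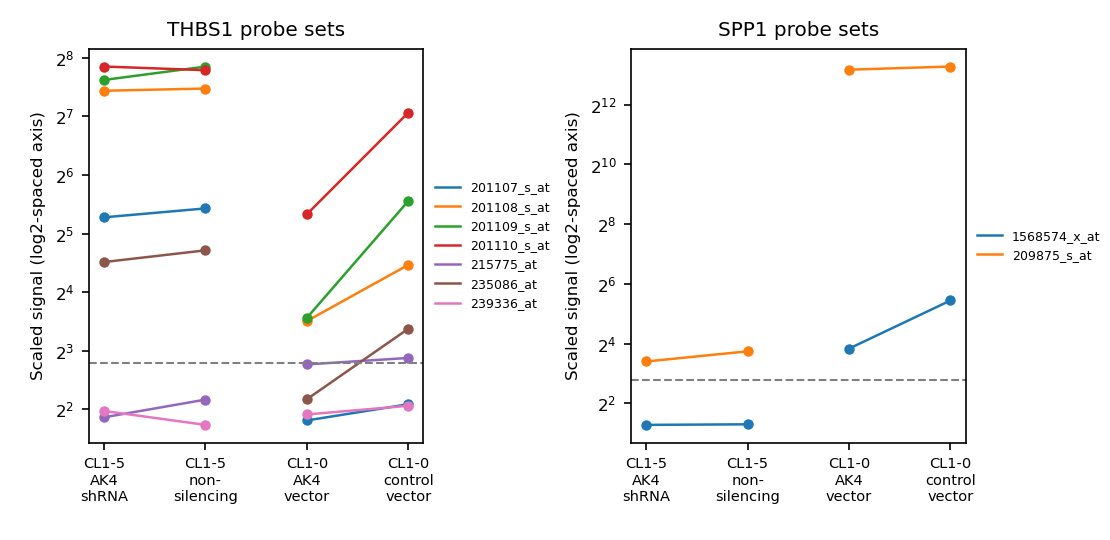
Scaled signal (vertical, log2-spaced axis) of each THBS1 probe set (left) and SPP1 probe set (right) on the 4 arrays, with lines joining the arrays of the same cell line and the floor dashed. The 3 brightest THBS1 probe sets are lower with AK4 vector than with control vector in CL1-0 and nearly level in CL1-5, and of the SPP1 probe sets the dimmer one alone drops with AK4 vector.

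The SPP1 probe sets disagreed in the same comparison. The bright 209875_s_at had 9249 with AK4 vector and 9955 with control vector, a log2 ratio of -0.11, whereas 1568574_x_at had 14.3 and 43.6, a log2 ratio of -1.61. POSTN had 1499 with AK4 vector and 1465 with control vector, a log2 ratio of 0.03, and its second measured probe set was at 0.21. Among the lysyl oxidases, LOXL3 was at -0.17. LOXL4 was at -0.05 by 227145_at, a bound because the AK4 vector signal of 5.32 was raised to the floor. Its other probe set, 1570219_at, above the floor on both arrays, was at -0.29. LOXL2 was at 0.68 by 202998_s_at, a bound because the control signal of 3.75 was raised to the floor, while 202997_s_at was at 0.09 and 228808_s_at at -0.47. With a 20th-percentile floor that LOXL2 ratio was 1.47, past 2-fold. LOX, LOXL1 and SPARC could not be compared in CL1-0, since both arrays lay below the floor, and TGFBI, at 8.12 with AK4 vector and 5.26 with control vector, was at 0.23, a bound.

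The comparison within CL1-5 asked what differs when AK4 is silenced, and it shares the non-silencing array with the comparison of the lines. None of the 9 measured members was past 2-fold in either direction, against 0.0914% of all measured genes past it upwards and 0.0131% downwards. So few genes passed 2-fold here that a count of 0 among 9 is near the background. Member ratios ran from -0.52 for LOXL4 to 0.19 for LOX, with a median of 0.01 against 0.00 over all 15314 measured genes. LOXL4 had 12.5 with AK4 shRNA and 17.9 with non-silencing shRNA at 227145_at, the 153rd lowest ratio of 14704 genes above the floor on both arrays, and -0.25 at 1570219_at. The 227145_at ratio shrank to -0.09 with a 60th-percentile floor.

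The remaining members moved less with AK4 shRNA. SPP1 was at -0.34, with both signals close to the floor. TGFBI had 217 with AK4 shRNA and 257 with non-silencing shRNA, a log2 ratio of -0.25. LOX was at 0.19, LOXL1 at -0.21, LOXL2 at 0.04, LOXL3 at 0.01 and SPARC at 0.07. These ratios were within 0.22 of 0 in size, where 0.22 is the pooled SD of ratios of probe sets to the same gene in this comparison. THBS1, which was lower with AK4 vector in CL1-0, was at 0.06 in CL1-5 by 201110_s_at, with its other measured probe sets between -0.23 and -0.04. SPARC and THBS1 were at -0.18 and -0.20 without the _x_at and _s_at probe sets. By gene, 5 measured members were above 0 and 4 below with AK4 shRNA, where 7604 of all measured genes were above and 7710 below. POSTN could not be compared, since all its probe sets were below the floor in CL1-5.

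Genes that work with the members were read from 5 lists. The shares of all measured genes to set beside their counts are 17.1% higher and 14.2% lower between the lines, 3.22% higher and 1.17% lower with AK4 vector, and 0.0914% higher and 0.0131% lower with AK4 shRNA. Some genes were named here beyond the naming rule and chosen after their values were seen. They were FKBP10, P3H4, PCOLCE2, FBLN5, FBN1, SPARCL1, TNC, CCN3, SMOC1, CD44, ITGB3, LRP1, ITGB1, ITGA8 and STAB1. To these were added CDKN2B, SMAD2, TGIF1, SKI, SMAD6 and, between the lines, SPOCK1 and CD36. The words "at least" again mark a bound. For procollagen processing and cross-linking, 25 genes were measured between the lines, of which 9 passed 2-fold upwards, where 17.1% of all measured genes did, and 4 downwards, near the 14.2% of all measured genes, with a median log2 ratio of 0.88. P4HA1, a subunit of the prolyl hydroxylase that stabilises collagen, had 237 in the CL1-5 control and 35.2 in the CL1-0 control, a log2 ratio of 2.75. TGM2, a transglutaminase that cross-links matrix proteins through glutamine, was at 2.51. SERPINH1, the collagen chaperone HSP47, was lower with 76.4 in CL1-5 and 625 in CL1-0, a log2 ratio of -3.03. The remaining genes lower in CL1-5 were FKBP10, another collagen chaperone, at -2.47, P3H4 at -1.59 and the procollagen enhancer PCOLCE2 at -1.21. The last 2 did not reach 2-fold with the values as deposited. In CL1-0, SERPINH1 had 276 with AK4 vector and 625 with control vector, at -1.18 the 1 of 24 measured genes of this list past 2-fold. In CL1-5 0 of 25 passed, and TGM2 was furthest from 0 at 0.64.

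Elastic fibre and microfibril genes, the scaffold on which LOX and LOXL1 act, had 5 of 15 at least 2-fold higher in CL1-5 and 0 lower, with a median of 0.69. EFEMP2 (fibulin-4), which tethers LOX to elastin, was at 2.33, the microfibril protein MFAP2 at 2.21 and EMILIN2 at 1.74. The elastin assembly protein FBLN5, at least 5.93-fold, and fibrillin FBN1, at least 3.21-fold, made up the 5. FBN1 was at 0.41 with a 60th-percentile floor. EFEMP2 was also higher in CL1-0 with AK4 vector, with 31.1 against 8.92 with control vector, a log2 ratio of 1.80, and with a 60th-percentile floor was at 0.89. Between the remaining arrays of the lines it was at 0.82. It was the 1 of 13 measured genes of this list past 2-fold in CL1-0, where the median was 0.31. With AK4 shRNA 0 of 15 passed, with MFAP4 furthest from 0 at 0.42 and a median of 0.13.

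Other matricellular genes had 5 of 20 past 2-fold upwards and 3 downwards in CL1-5, with a median of 0.28. Of all measured genes, 17.1% passed upwards and 14.2% downwards. CCN2 (CTGF), a cysteine-rich matricellular protein, had 149 in the CL1-5 control and 5733 in the CL1-0 control, a log2 ratio of -5.27. SPARCL1, the nearest relative of SPARC, had 3.83 in the CL1-5 control, under the floor, and 355 in the CL1-0 control. It was at least 51.2-fold lower in CL1-5, where SPARC was higher. SPOCK1 was at least 2.48-fold lower, but at -0.04 with a 60th-percentile floor. ECM1, a secreted glycoprotein, was at 3.85, tenascin-C (TNC) at least 3.33-fold and CCN3 at least 3.06-fold higher, and SMOC1 at 1.06. With a 60th-percentile floor TNC was at 0.46 and CCN3 at 0.34. TNR, tenascin-R, was at 1.12, and at 0.56 to 0.68 under loess, quantile normalization and a common median, where SMOC1 was also under 2-fold. In CL1-0, SPOCK1, a proteoglycan of the SPARC family, was the 1 of 18 past 2-fold, at 1.05 with AK4 vector, but at 0.80 under quantile normalization, 0.95 under loess and 0.99 with a common median. In CL1-5 0 of 17 passed with AK4 shRNA, with the basement membrane proteoglycan AGRN at 0.64 and without the _x_at and _s_at probe sets at -0.51.

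Receptors of matricellular proteins had 9 of 17 past 2-fold upwards and 4 downwards in CL1-5, with a median of 1.31. Of all measured genes, 17.1% passed upwards and 14.2% downwards. ITGAV, the integrin chain that binds osteopontin and periostin, had 217 in the CL1-5 control and 3867 in the CL1-0 control, a log2 ratio of -4.15, the direction of SPP1 and POSTN themselves. CD44, another osteopontin receptor, ran the opposite way, with 781 in the CL1-5 control and 2.67 in the CL1-0 control, at least 113-fold higher in CL1-5. ITGB3, the beta chain that pairs with ITGAV, had 118 in the CL1-5 control and 5.16 in the CL1-0 control. By the probe set read here ITGB3 was at least 17.01-fold higher, a log2 ratio of 4.09. It was at 2.40 averaged over its probe sets, 1.93 with a 20th-percentile floor and 1.72 without the _x_at and _s_at probe sets. CD44, at 6.81 by the probe set read here, was at 4.50 averaged over its probe sets. The other receptors lower in CL1-5 were CD36, at least 13.8-fold, LRP1 at -1.38 and ITGB1 at -1.05. Neither of the last 2 held under all settings. LRP1 was at -0.14 without the _x_at and _s_at probe sets, and ITGB1 was at -0.52 under quantile normalization, -0.47 under loess, -0.18 as deposited and -0.64 between the remaining arrays of the lines. The syndecan SDC1 was at 4.04 and the integrin chain ITGA3 at 3.87. Some calls of higher receptors were fragile too. ITGA8, at 1.31, was at 0.04 without the _x_at and _s_at probe sets and at 0.56 with a 60th-percentile floor. STAB1, at 1.48, was at 0.86 averaged over its probe sets. Neither comparison within a line had a receptor past 2-fold, with 14 measured in CL1-0 and 16 in CL1-5. CD36, a receptor of thrombospondin-1, was at -0.71 with AK4 vector, and without the _x_at and _s_at probe sets at 0.45. CALR, calreticulin, which binds thrombospondin-1, was at 0.39 with AK4 shRNA.

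Of the TGF-beta list, 6 of 18 genes were past 2-fold upwards and 4 downwards in CL1-5, where 17.1% and 14.2% of all measured genes were, with a median of 0.12. The receptor TGFBR2 was at 3.56 and the signal transducer SMAD3 at 3.88, whereas the SMAD corepressor SKIL was at -4.45 and, averaged over its probe sets, at -2.04. Also lower in CL1-5 were the cell cycle inhibitor CDKN2B, at least 6.25-fold, SMAD2 at -1.89 and the corepressor TGIF1 at -1.29. SMAD2 was at -0.88 averaged over its probe sets, and TGIF1 at -0.15 between the remaining arrays of the lines. SMAD6, an inhibitory SMAD and 1 of the 6, was at least 3.03-fold higher as reported but was at -1.15 under quantile normalization and -1.05 with a common median. In CL1-0, with AK4 vector 3 of 17 passed 2-fold downwards and 1 upwards, where 1.17% and 3.22% of all measured genes did, with a median of -0.18. TGFBR2 had 13.3 with AK4 vector and 32.1 with control vector, a log2 ratio of -1.27. The early target KLF10 was at -1.21, and the corepressor SKI, the gene that was higher, at 1.07 and, averaged over its probe sets, at 0.55. The ligand TGFB1 was at -1.10, but without the _x_at and _s_at probe sets it was at 0.24. In CL1-5, 0 of 17 passed with AK4 shRNA, and SKIL was furthest from 0 at 0.64. Of these 17, 13 were above 0, where 7604 of 15314 measured genes were, and 12 of 15 elastic fibre and microfibril genes were too. With AK4 vector in CL1-0, 13 of 17 TGF-beta genes were below 0, where 6450 of 14678 measured genes were.

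**Figure D5:**
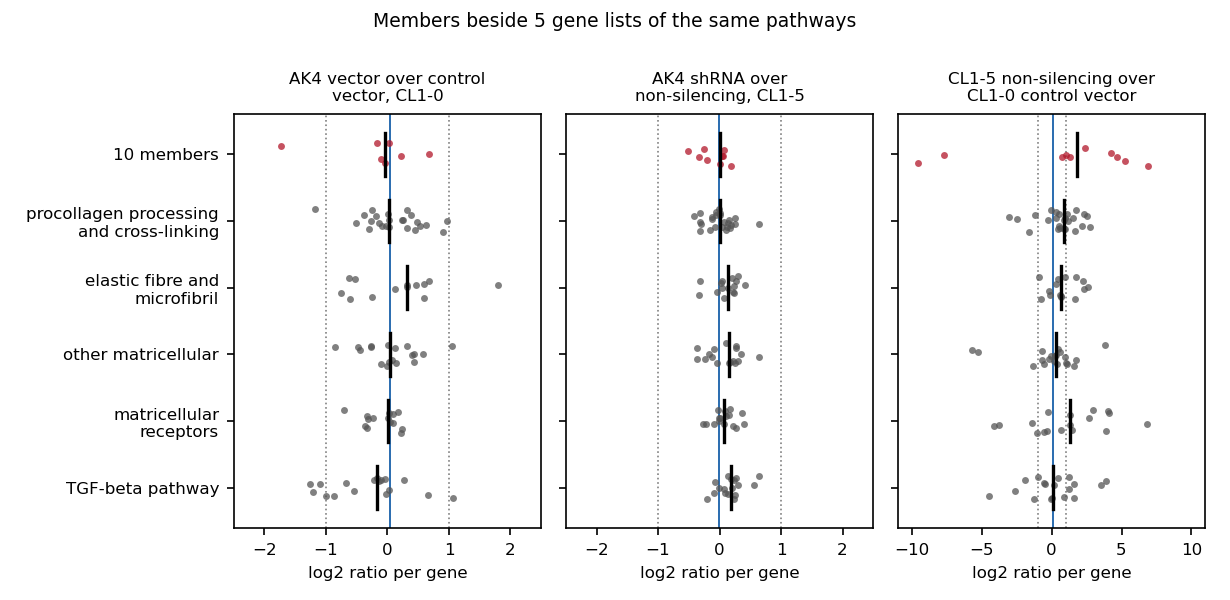
The log2 ratio per gene (horizontal) of the 10 members (red) and of 5 related gene lists (grey) in the 3 comparisons, with black bars at each list's median, a blue line at the median of all genes and dotted lines at 2-fold. The right panel has a wider horizontal range, and the members SPP1 and POSTN lie furthest left in it, at -9.54 and -7.72.

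The genes most like the members in pattern were sought for the members that were above the floor on all 4 arrays and ranged most. Likeness was the Euclidean distance between log2 levels centred on each gene's mean, over 4 arrays. Only the 12797 genes above the floor on all 4 arrays were compared, which left out POSTN and every gene below the floor in CL1-5. Among those compared, SPP1, with a range of 9.88, had no close neighbour. The nearest were UPP1 at a distance of 3.46, BEX2 at 3.64 and SLC2A3 at 3.96. For THBS1, with a range of 2.52, the nearest were TPM4, a tropomyosin, at 0.19, EFNB2, an ephrin ligand, at 0.30, and RAB27A, a GTPase of secretory vesicles, at 0.40. TPM4 had 622 with AK4 shRNA and 676 with non-silencing shRNA in CL1-5, and 117 with AK4 vector and 345 with control vector in CL1-0. With 4 arrays many genes can lie close by, so these distances only describe the arrays.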

How the data were processed

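RNA of 4 stably transduced cultures was read on 1-colour Affymetrix arrays. The authors deposited linear intensities for each probe set. MAS5 is named in the submitters' processing notes. Its version and scaling target are unstated in what was read here. The deposited columns had medians of 15.3 (CL1-5 AK4 shRNA), 15.6 (CL1-5 non-silencing shRNA), 6.23 (CL1-0 AK4 vector) and 6.07 (CL1-0 control vector), so a common scale was not present, and whether the values are MAS5 signals or another summary is unknown. No detection calls were used.

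From these values each array was scaled to a common trimmed mean with 2% taken off each end, leaving out 62 control probe sets. The floor and log2 followed. Of 54675 probe sets, 41097 had 1 gene symbol, 1801 had several and 11777 had none, and 99.9% of the named ones took their current symbol by gene identifier. Arrays were grouped by their genotype labels, with 1 array a group, so no test was run, and precision is limited by there being 4 arrays. The call rule was 2-fold. The computation was tested on simulated data with known changes, which gives no replicate error. Alternatives changed the scaling, the floor or the probe sets of a gene. The naming rule took all members, AK4, and from each list and comparison up to 3 genes past 2-fold and above the floor on both arrays, or the gene furthest from 0. Members and lists were chosen with earlier results of these data known. Python 3.11.15, pandas 2.3.3 and statsmodels 0.14.6 were used.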

Additional observations from a re-analysis of the deposited data

How the results depend on the processing

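The counts of members past 2-fold were recomputed under 9 other settings per comparison, with the lines also compared through their other arrays. Of 56 such counts, 52 stayed within 1.5 times the reported one, a limit that also passes a fall from 7 to 5. They include the counts with AK4 shRNA, which were 0 throughout. Those had little room to change, since so few of all genes passed 2-fold there. The number higher in CL1-0 with AK4 vector was 1 in place of 0 with the floor at the 20th percentile and with no floor, in both cases LOXL2, whose control signal lay under the reported floor. Leaving out probe sets ending in _x_at or _s_at gave 0 in place of 1 lower with AK4 vector, and 1 in place of 2 lower in CL1-5 than in CL1-0, since LOX, LOXL2 and SPP1 then had no measured probe set and THBS1 was read from a dimmer one. The number higher in CL1-5 lay between 5 and 8, and no alternative gave a member past 2-fold with AK4 shRNA. Among single genes, 732 recomputed ratios stayed within the spread between probe sets of 1 gene (pooled SD) and 113 moved further. Some uncalled ratios changed sign, among them CD36 in CL1-0 (0.45) and AGRN (-0.51), SPARC (-0.18) and THBS1 (-0.20) in CL1-5, all without those probe sets. Of called ratios, that of TGFB1 in CL1-0 reversed to 0.24 without those probe sets, and that of SMAD6 between the lines, 1.597 as reported, reversed to -1.15 under quantile normalization and -1.05 with a common median. The cause of these shifts was not tested beyond the probe sets left out. No paired analysis was possible because each group is 1 array. Signals near the floor, such as those of LOXL4, limit what can be seen, and any ratio with 1 array at the floor is a bound whose size follows the floor.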

Other observations

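Some deposited values of dim member probe sets were identical on both arrays of a line. POSTN 214981_at and SPP1 1568574_x_at were each the same on both CL1-5 arrays, at 2.89 and 3.18 as deposited, and LOX 213640_s_at was the same on both CL1-0 arrays, at 3.002. THBS1 201107_s_at had that same deposited value of 3.002 on the CL1-0 control array. In all, 155 probe sets held it on the CL1-0 array labelled AK4 vector and 187 on the CL1-0 control array. Over all 54675 probe sets, 6.01% were identical between the CL1-5 arrays and 8.23% between the CL1-0 arrays. Not all of these were dim. Of the 3287 identical in CL1-5, 1326 lay above the floor on both arrays, as did 1334 of the 4502 identical in CL1-0. The log2 ratio of such a probe set holds the scaling factors and nothing else. All 3 identical member probe sets lay below the floor where they were identical.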
